A study of Mus musculus with 8 samples.

Results

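The liver X receptors and the genes that carry cholesterol out of cells were followed through 8 single-cell libraries of mouse liver. The 9 genes, chosen by symbol from the 55450 genes of the count matrix, were the receptor genes Nr1h2 and Nr1h3, the efflux transporter genes Abca1 and Abcg1, the apolipoprotein genes Apoe and Apoc2, the ubiquitin ligase gene Mylip, and the lipid synthesis genes Srebf1 and Lpcat3. All mice were wild-type C57BL/6. The 2 control mice received normal diet and drinking water, the 3 HFD+F+CCl4 mice a high-fat diet with fructose solution and intraperitoneal carbon tetrachloride (CCl4), and the 3 WD+F+CCl4 mice a western diet with the same solution and CCl4. By the methods of the study, both regimens lasted equally long, and the western diet held more cholesterol than the high-fat diet. Both treated groups are NASH mice with fibrosis (NASH, non-alcoholic steatohepatitis), and since both received fructose and CCl4 as well as a diet, the effects of diet, fructose and CCl4 cannot be told apart. Ages were not given in the labels.

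LXRα (Nr1h3) and LXRβ (Nr1h2) are nuclear receptors that are activated by oxysterols, the oxidized forms of cholesterol, and bind DNA together with the retinoid X receptor. Their targets let a cell export cholesterol to lipoprotein particles, take up less of it, and make and remodel fatty acids and phospholipids. In the liver, macrophages that clear lipid and dying cells are a well known site of this pathway, and hepatocytes use it for lipid synthesis. The opposite arm, driven by SREBP2, raises sterol synthesis and lipoprotein uptake when cell cholesterol is low.

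On GRCm38, the annotation places Nr1h2 at chr7:44549616-44553951, Apoe at chr7:19696109-19699188 and Apoc2 at chr7:19671579-19677941, all on the minus strand, so that the 2 apolipoprotein genes are close neighbours. Nr1h3 lies at chr2:91184061-91202834, Abca1 at chr4:53030787-53159895 and Srebf1 at chr11:60199089-60222581, also on the minus strand. Abcg1 lies at chr17:31057675-31117988, Mylip at chr13:45389742-45412022 and Lpcat3 at chr6:124663027-124704418, on the plus strand. All 9 are protein-coding genes. The exons of Lpcat3 share 334 bases with Emg1 on the opposite strand, and those of Apoc2 share 646 bases with Gm44805 on its own strand. Gm44805 had 1 UMI (unique molecular identifier, 1 captured transcript) in all cells.

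LXR and its partner bind a direct repeat of AGGTCA with 4 bases between the copies (DR4, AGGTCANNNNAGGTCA). RefSeq promoters on GRCm38.p6 (250 bases before to 50 after a start) were present for 8 of the 9 genes, 13 promoters in all, and were searched on both strands, allowing 3 mismatches in the 12 fixed bases. Only Abca1 and 1 of the 3 Srebf1 promoters held such a word, against 21.88% of 32851 promoters. The words of those 2 genes were alike, and the word they share, GGGTTACTNNCGGTCA, stood in 3 of the 32851 promoters (0.009132%), those of Abca1, Srebf1 and Fasn (fatty acid synthase). That word was built from the Abca1 and Srebf1 hits, so those 2 matches were fixed in advance. Its rarity is therefore no evidence of a link between the genes. The 3 windows are shown because the values of their genes, 1 efflux gene and 2 lipid synthesis genes, are given below. Each window is given 5′ to 3′ on the strand of its gene, with the word in capitals, read there as its reverse complement:
Abca1, chr4:53159915-53159994, minus strand: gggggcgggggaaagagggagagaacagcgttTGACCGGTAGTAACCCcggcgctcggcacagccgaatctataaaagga
Srebf1, chr11:60210606-60210685, minus strand: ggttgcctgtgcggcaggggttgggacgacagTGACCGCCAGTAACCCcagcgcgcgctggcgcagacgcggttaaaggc
Fasn, chr11:120824725-120824797, minus strand: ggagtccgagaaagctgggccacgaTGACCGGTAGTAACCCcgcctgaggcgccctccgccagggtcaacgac
The capitals run from base -67 to -52 before the start of Abca1, from -182 to -167 before that of Srebf1 and from -225 to -210 before that of Fasn. A match is a description of the letters and not a measured binding site.

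Libraries held between 6135827 UMIs (control replicate 2) and 64855024 UMIs (replicate 3 of WD+F+CCl4). Barcodes were kept where over 500 genes were seen and mitochondrial UMIs stayed below 25%, which left 80474 of 88581, and 100 to 210 kept barcodes of each mouse also occurred in another library. Cells were clustered, and each cluster was named only where its markers allowed it, so that every cell type name below means cells like that type (for example Clec4f, Vsig4 and Timd4 for Kupffer-like cells, Trem2 and Gpnmb for lipid-associated macrophage-like cells, Siglech and Ccr9 for plasmacytoid dendritic-like cells). Levels are given as CPM, the UMIs of a gene per 1000000 UMIs of the same cells in 1 mouse, and a type was used in a mouse with at least 20 cells. The libraries of the control mice stood apart: clusters of 2035, 1533 and 876 cells that mixed genes of different cell types came nearly all from the 2 control mice and stayed unnamed. In the cluster of 876 cells these types were hepatocytes and classical monocytes. HFD+F+CCl4 replicate 1 supplied 2772 of the 3614 cells of a patrolling monocyte cluster and 2779 of the 3172 cells of a macrophage cluster, both led in part by the stress genes Hspa1a and Fos.

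In the monocyte-macrophage-DC (MMD) system, which pools the named monocytes, macrophages and dendritic cells (DCs) and 1 unnamed cluster of 3070 cells with Il1rn, Cxcl9 and Gpr84 among its leading genes, most of these genes were higher in NASH mice than in control mice. In HFD+F+CCl4 mice 5 of the 9 rose and none fell: Nr1h3, Abca1, Abcg1, Apoe and Lpcat3. Over all genes tested in this comparison 20.3% passed the threshold, 11.1% as higher. The median log2 fold change of the 9 was 1.73, against 0.09 over all 17248 genes. In WD+F+CCl4 mice the same 5 and Nr1h2 rose, 6 of 9, against 24.9% of all genes, 13.4% as higher, and the median of the 9 was 2.37 against 0.08. Both comparisons use the same 2 control mice. Tests throughout are edgeR's quasi-likelihood test on counts summed per mouse, with Benjamini-Hochberg adjustment over all genes tested in the class and a threshold of 0.05. Log2 fold changes are given with a standard error (SE) worked back from the test. It is the absolute log2 fold change divided by the square root of the F statistic, and was not estimated separately.

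The cells that made up the MMD system differed between the groups. In control replicates 1 and 2, 57.0% and 50.1% of the MMD cells were plasmacytoid DCs and 11.9% and 28.6% type 1 DCs, while in NASH mice plasmacytoid DCs were 0.4% to 6.9%. The macrophage class made up 8.0% to 40.7% of the MMD cells in NASH mice and 2.2% and 2.0% in the control mice. A change in cell makeup and a change within cells therefore cannot be told apart in this pooled class. Without plasmacytoid and type 1 DCs, a setting chosen after seeing the data, 3 of the 9 genes rose in HFD+F+CCl4 mice: Nr1h3, Apoe and Lpcat3. Abca1 (log2 fold change 2.49, adjusted p = 0.0505) and Abcg1 (1.17, adjusted p = 0.0511) no longer passed, the highest adjusted p of each among the 19 alternatives, whose lowest values were 7.43e-12 and 5.15e-10. In WD+F+CCl4 mice 5 of the 9 still rose in that setting. Of all 16656 genes tested there, 503 passed in HFD+F+CCl4 and 1159 in WD+F+CCl4, in either direction.

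**Figure D1:**
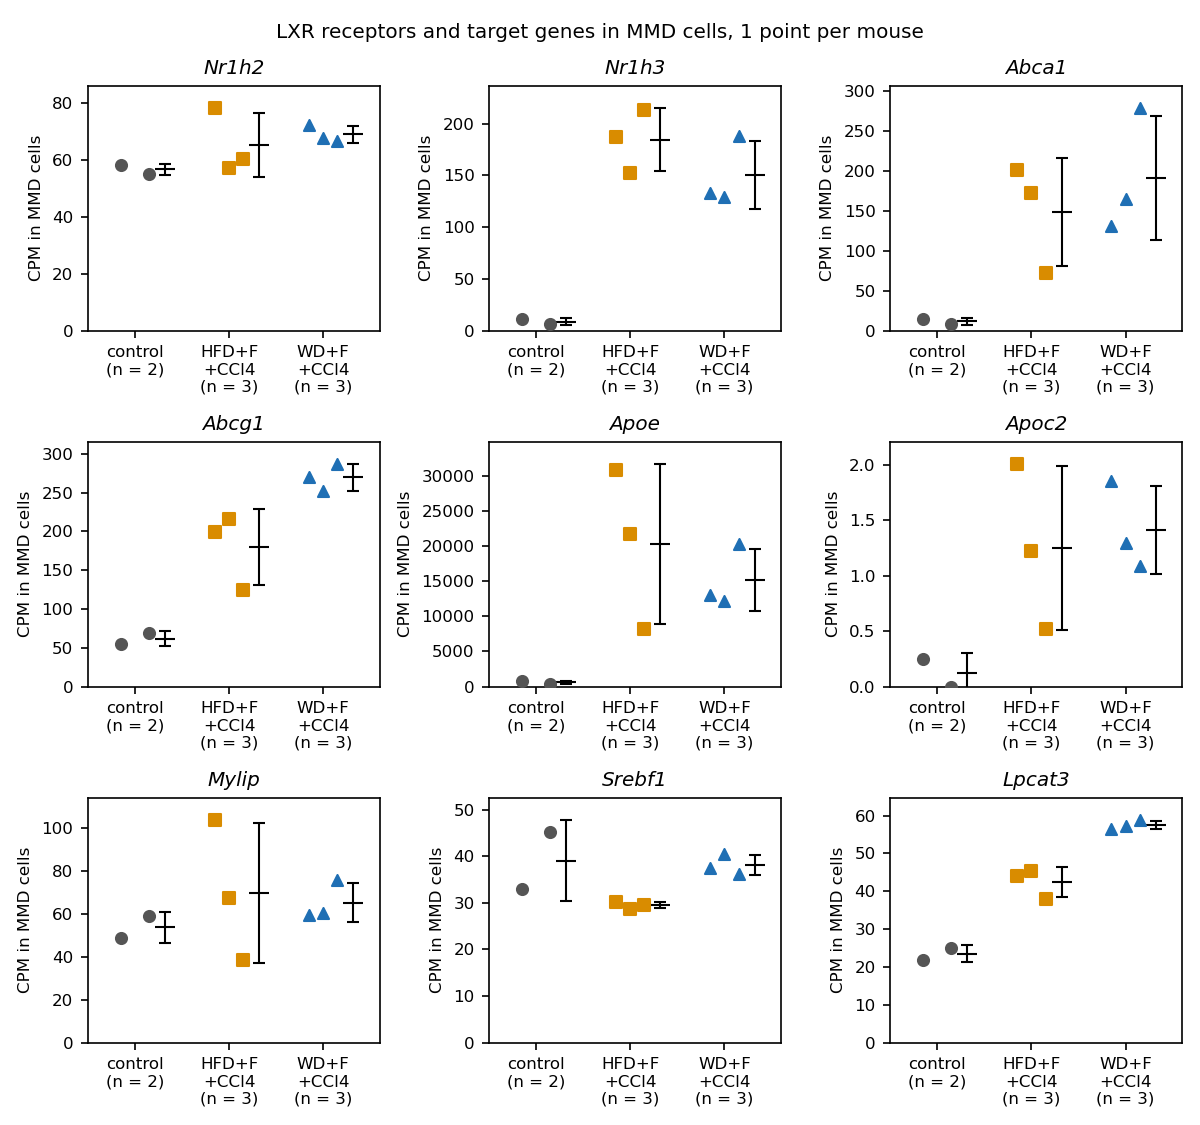
CPM of each of the 9 genes in MMD cells (y axis, from 0), 1 point per mouse, with the group mean and SD as a bar to the right of the points. The NASH mice lie above both control mice for Nr1h3, Abca1, Abcg1, Apoe and Lpcat3, while the groups overlap for Mylip.

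Nr1h3, the receptor gene typical of macrophages, liver and fat, was at 11.2 and 6.28 CPM in the MMD cells of the 2 control mice, at 187, 153 and 213 CPM in the HFD+F+CCl4 mice and at 133, 130 and 188 CPM in the WD+F+CCl4 mice. All 6 NASH mice lay above both control mice, and the 2 treated groups overlapped. The log2 fold change against control was 4.39 (SE 0.34, adjusted p = 0.000235) in HFD+F+CCl4 and 4.13 (SE 0.33, adjusted p = 0.000251) in WD+F+CCl4. Nr1h2, the more evenly expressed receptor gene, was at 58.1 and 55.3 CPM in control mice, 78.2, 57.3 and 60.4 CPM in HFD+F+CCl4 mice and 72.3, 67.9 and 66.8 CPM in WD+F+CCl4 mice. Its difference was small: 0.36 (SE 0.15, adjusted p = 0.135) in HFD+F+CCl4, and 0.50 (SE 0.16, adjusted p = 0.0471) in WD+F+CCl4, a call that was lost in 15 of 19 alternatives (log2 fold changes 0.26 to 0.63, adjusted p 0.0332 to 0.477). Without likely doublets it was 0.50 (adjusted p = 0.0534).

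Across cell types the 2 receptor genes had different patterns. Nr1h3 was highest in Kupffer cells, the resident macrophages of the liver, at 468 ± 109 CPM (SD, n = 5 NASH mice, since the control mice and WD+F+CCl4 replicate 1 had too few). The lowest of these mice (352 CPM) lay above the highest value of the macrophage class (332 CPM), the next type in the order. Macrophages (219 ± 59.1 CPM, n = 6), lipid-associated macrophages (193 ± 62.5, n = 6), patrolling monocytes (157 ± 69.6, n = 7) and hepatocytes (133 ± 50.7, n = 8) followed with overlapping values. Within the same NASH mice, Kupffer cells were above macrophages in 5 of 5 mice and macrophages above classical monocytes in 6 of 6. The lowest means were in type 1 DCs (6.63 ± 5.16 CPM, n = 8) and plasma cells (2.89 ± 3.46 CPM, n = 3, 2 of them control mice). Over all mice, Nr1h2 ran from 84.0 ± 6.70 CPM (n = 7) in patrolling monocytes to 42.6 ± 20.3 CPM (n = 8) in hepatocytes, and each type in its order overlapped the next. The hepatocyte mean holds a value of 0 from the 26 cells of control replicate 2, and in NASH mice hepatocytes were at 30.2 to 55.1 CPM and B cells at 17.9 to 52.5 CPM. With more than 1000 genes per cell endothelial cells were highest. Levels between types are descriptions, since the same cells were used to form the types. Here and below, means of Kupffer cells, lipid-associated macrophages and macrophages hold NASH mice only. Those of most other types also hold control mice, so the order of types mixes cell type with group.

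**Figure D2:**
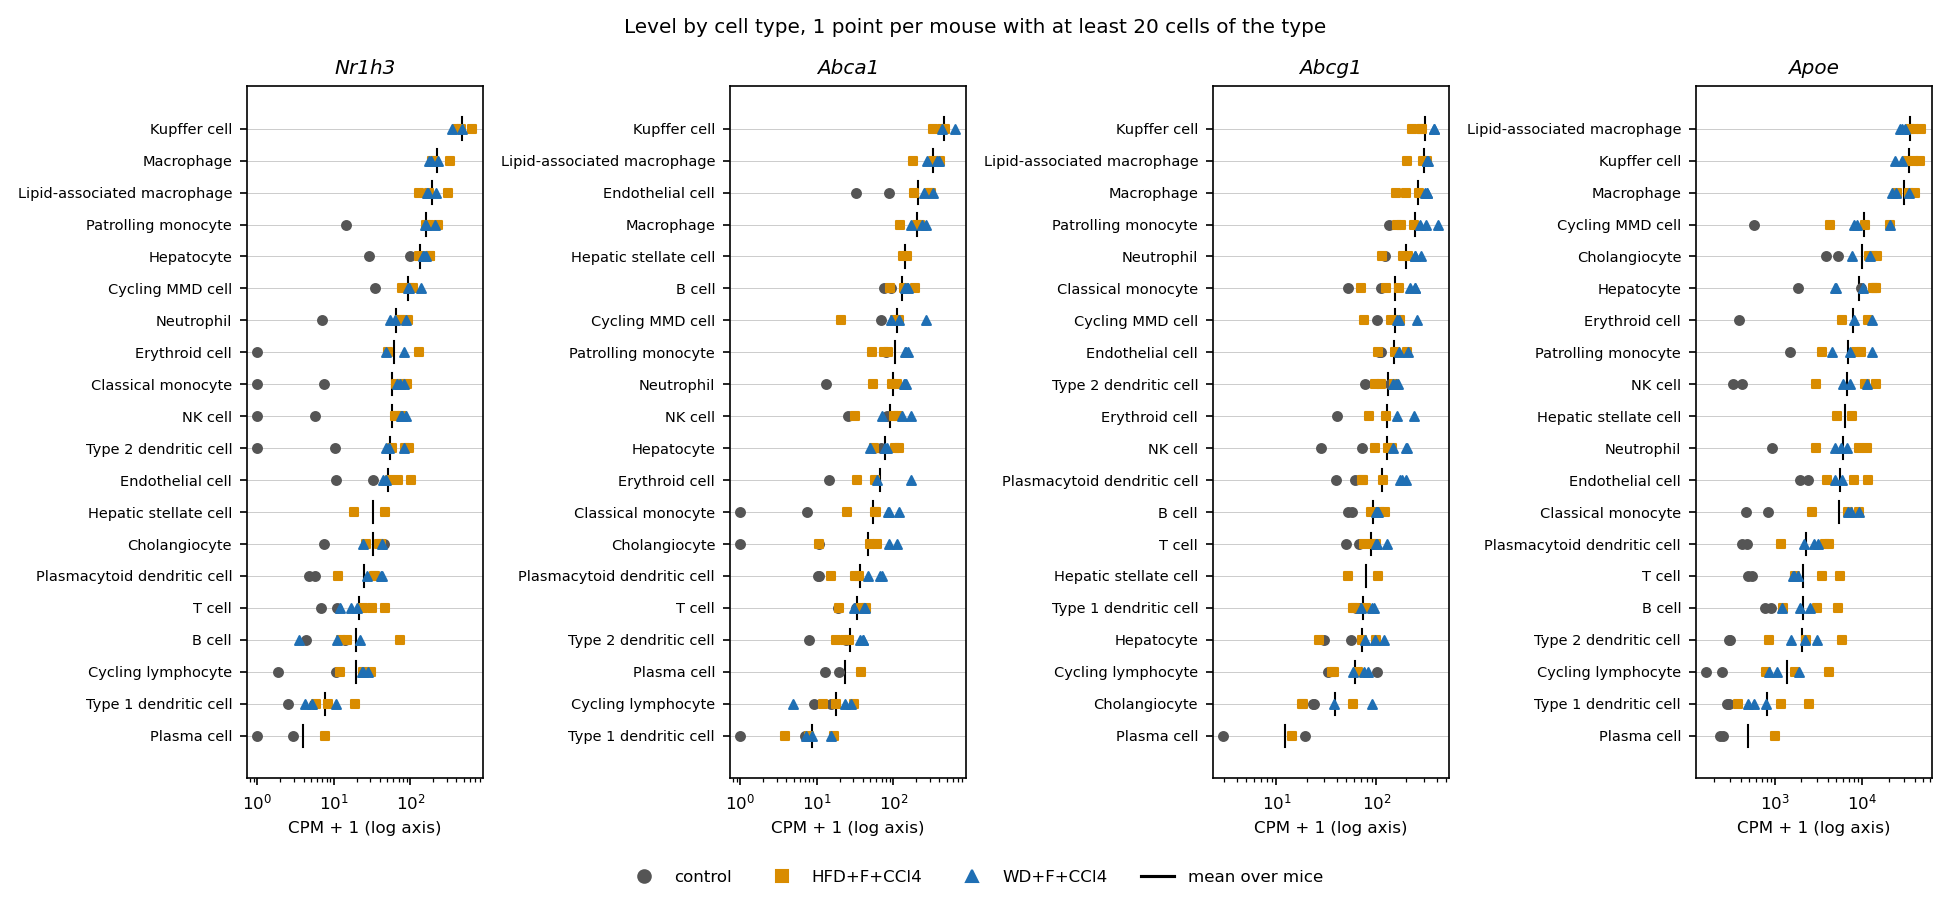
CPM + 1 on a log axis (x) of Nr1h3, Abca1, Abcg1 and Apoe by cell type (y, ordered by the mean over mice, black bar), 1 point per mouse with at least 20 cells of the type. Kupffer cells, lipid-associated macrophages and macrophages stand at or near the top for all 4 genes, and control points lie to the left of NASH points in many types. The means of these macrophage types hold NASH mice only, while those of most other types also hold control mice.

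Within single cell types the 9 genes gave 86 gene-by-type tests in 11 types with enough control cells. The types came from the same mice, so the same direction in many types is not an independent repeat. Of these, 9 were higher and 3 lower in HFD+F+CCl4 mice, against 2.45% of all gene-by-type tests called, and 16 were higher and 1 lower in WD+F+CCl4 mice, against 4.34%. Macrophages, lipid-associated macrophages, Kupffer cells and patrolling monocytes had too few control cells to be tested against control. Leaving out control replicate 1 brought the calls from 12 to 1 and from 17 to 4, and leaving out control replicate 2 brought them to 7 and 10. Without WD+F+CCl4 replicate 2 there were 10 calls in WD+F+CCl4. For 3 of these classes the 2 conditions drew on different clusters. One cluster gave 95.8% of the control B cells but 13.1% of those of HFD+F+CCl4 mice and 1.09% of those of WD+F+CCl4 mice, 1 cluster gave 90.7% of the control T cells but 2.42% and 0.748% of those of the treated mice, and 1 cluster gave 85.5% of the control NK cells but 10.5% and 13.1%. Plasmacytoid DCs and cycling lymphocytes each came from 1 cluster in all groups.

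Nr1h3 was higher than control in all 10 types tested, in both models, and passed the threshold in 3 types each. In plasmacytoid DCs, which make type I interferon, it was at 3.70 and 4.67 CPM in control mice (8 and 2 UMIs), 10.2, 33.1 and 32.1 CPM in HFD+F+CCl4 mice and 40.6, 41.6 and 26.1 CPM in WD+F+CCl4 mice. Both treated groups lay above the control mice, by a log2 fold change of 2.91 (SE 0.47, adjusted p = 0.00436) and 3.25 (SE 0.44, adjusted p = 0.000405). In NK cells the log2 fold changes were 3.89 (SE 0.45, adjusted p = 0.000193) and 4.17 (SE 0.44, adjusted p = 4.11e-05), from 4 UMIs in control replicate 1 and 0 in control replicate 2. In T cells Nr1h3 was higher in HFD+F+CCl4 (2.27, SE 0.38, adjusted p = 0.0131), and in cycling lymphocytes in WD+F+CCl4 (3.57, SE 0.81, adjusted p = 0.0286), from 2 UMIs in each control mouse. In cycling lymphocytes Nr1h3 had no test without likely doublets, and the call was lost in 3 of 12 alternatives (adjusted p 0.000353 to 0.666). Where barcodes scored as likely doublets (2 cells in 1 droplet) were left out, the call in plasmacytoid DCs was lost in both models (2.61, adjusted p = 0.166, and 1.86, adjusted p = 0.259), as were those in NK and T cells of HFD+F+CCl4 mice (2.72, adjusted p = 0.126, and 1.30, adjusted p = 0.0992). In hepatocytes Nr1h3 was at 96.4 and 27.5 CPM in control mice and at 127 to 181 CPM in the 6 NASH mice, which did not overlap, but the test did not pass (1.27 and 1.20 on the log2 scale, adjusted p = 0.154 and 0.131).

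Macrophage marker levels differed in the same direction in the same classes. A list of 7 markers, among them Adgre1, C1qa, C1qb, C1qc, Ms4a7 and Csf1r, summed to 133 to 162 CPM in the NK cells of control mice, 1769 to 3858 CPM in HFD+F+CCl4 mice and 2010 to 4406 CPM in WD+F+CCl4 mice. In plasmacytoid DCs the sums were 49.9 to 81.7, 568 to 1075 and 883 to 1121 CPM, and in T cells 67.2 to 95.4, 746 to 1593 and 315 to 718 CPM, in the same order of groups. In B cells they were 31.5 to 70.5, 322 to 1259 and 184 to 734 CPM, in cycling lymphocytes 15.2 to 38.1, 414 to 1300 and 416 to 909 CPM, and in type 2 DCs 113 to 266, 765 to 1444 and 893 to 999.96 CPM. In classical monocytes they were 809 to 1028, 1758 to 2493 and 2151 to 2297 CPM. Hepatocytes had sums of 154 to 247, 2054 to 2477 and 1074 to 1798 CPM, and endothelial cells 105 to 131, 1139 to 2609 and 1278 to 1571 CPM. In the NK cells and plasmacytoid DCs of control mice up to 4 and 1 of the 7 markers were at 0, and in NASH mice none was. In NASH mice Apoe had 1.66 to 3.76 UMIs per macrophage marker UMI in NK cells, 2.03 to 4.17 in plasmacytoid DCs and 2.16 to 3.74 in the macrophage class. Abca1 had 0.0255 to 0.0802 UMIs per marker UMI in the plasmacytoid DCs of NASH mice, 0.0174 to 0.0421 in NK cells and 0.0103 to 0.0275 in the macrophage class. Nr1h3 had 0.0095 to 0.0565 in plasmacytoid DCs, 0.0176 to 0.0372 in NK cells and 0.0146 to 0.0297 in the macrophage class. In the plasmacytoid DCs of control mice the ratios were 5.03 to 9.56 for Apoe, 0.114 to 0.194 for Abca1 and 0.0571 to 0.0741 for Nr1h3. In the NK cells of control mice they were 2.0 to 3.11, 0.184 to 0.5 and 0.0 to 0.0351. For Abca1 in B cells the ratio was 1.05 to 2.92 in control, 0.152 to 0.278 in HFD+F+CCl4 and 0.206 to 0.836 in WD+F+CCl4 mice. The part of macrophage RNA in the values of lymphocytes, DCs, hepatocytes and endothelial cells was not tested.

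**Figure D3:**
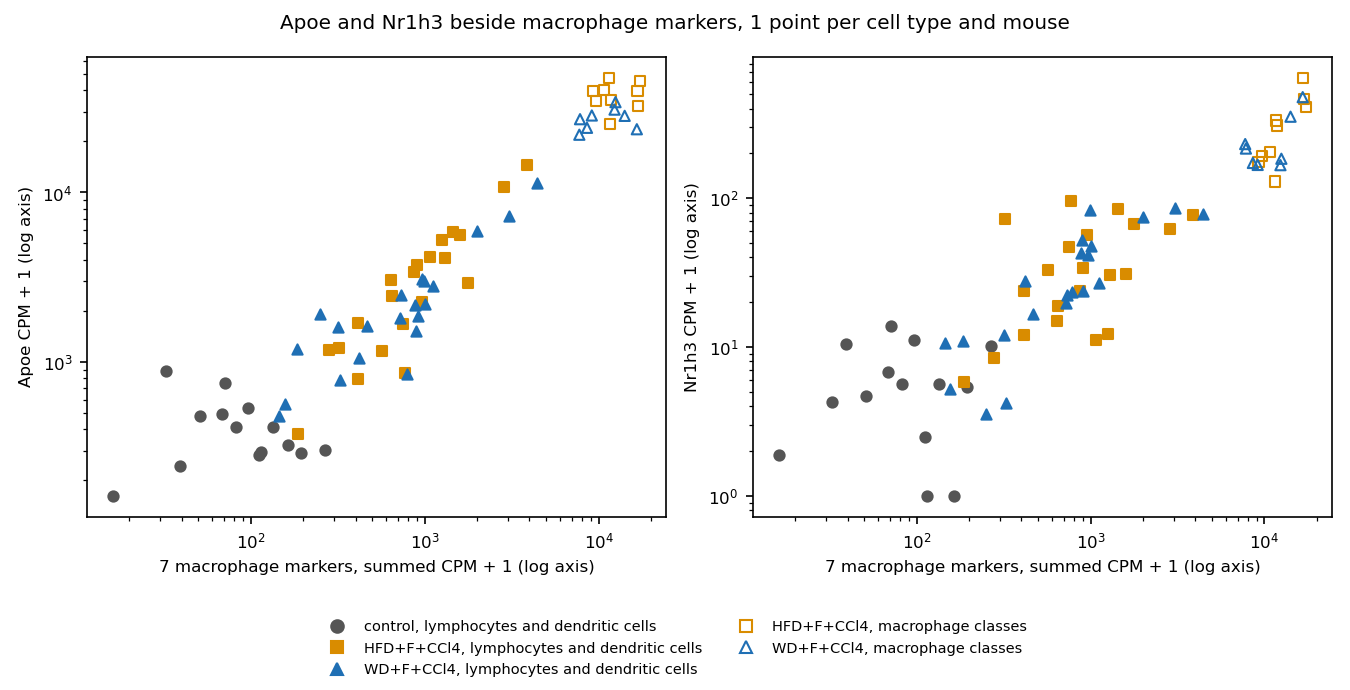
Apoe (left) and Nr1h3 (right), CPM + 1, against the summed CPM + 1 of 7 macrophage markers, both axes log, 1 point per cell type and mouse. Filled points are B, T and NK cells, cycling lymphocytes and DCs, and open points are macrophages, lipid-associated macrophages and Kupffer cells. Most lymphocyte and DC points of NASH mice lie above and to the right of those of control mice and below the macrophage classes, while B cells and type 1 DCs of some NASH mice lie within the control range for Nr1h3.

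Abca1, which moves cholesterol to lipid-poor apolipoprotein A1, was at 14.97 and 8.79 CPM in the MMD cells of control mice, 202, 172 and 72.4 CPM in HFD+F+CCl4 mice and 131, 165 and 278 CPM in WD+F+CCl4 mice. The NASH mice all lay above the control mice, with HFD+F+CCl4 replicate 3 lowest among them. The log2 fold change was 3.64 (SE 0.55, adjusted p = 0.00276) in HFD+F+CCl4 and 4.07 (SE 0.56, adjusted p = 0.00149) in WD+F+CCl4. Abcg1, which moves cholesterol to mature HDL particles, was at 54.9 and 69.1 CPM in control mice, 199, 216 and 124 CPM in HFD+F+CCl4 mice and 270, 252 and 286 CPM in WD+F+CCl4 mice. Here the 3 groups did not overlap. Against control the log2 fold change was 1.73 (SE 0.23, adjusted p = 0.00178) in HFD+F+CCl4 and 2.37 (SE 0.24, adjusted p = 0.000553) in WD+F+CCl4.

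Both transporter genes were highest in macrophage types, but Abca1 also stood high in endothelium. Abca1 was at 464 ± 115 CPM in Kupffer cells (SD, n = 5), 325 ± 87.1 CPM in lipid-associated macrophages (n = 6), 212 ± 115 CPM in endothelial cells (n = 7) and 202 ± 51.6 CPM in macrophages (n = 6), each overlapping the next. The endothelial mean holds the control mice, at 87.2 and 31.6 CPM, while the macrophage types hold NASH mice only. Within the same NASH mice the order Kupffer cells, lipid-associated macrophages, macrophages held in every mouse with both types (5 of 5 and 6 of 6), and macrophages were above patrolling monocytes in 6 of 6 and above classical monocytes in 6 of 6. Abcg1 was at 309 ± 65.8 CPM in Kupffer cells, 297 ± 49.1 CPM in lipid-associated macrophages, 262 ± 69.7 CPM in macrophages and 243 ± 98.7 CPM in patrolling monocytes (n = 7), and macrophages were above patrolling monocytes in only 3 of 6 mice. Type 1 DCs had the least Abca1, at 7.52 ± 5.34 CPM (n = 8).

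Within types, Abca1 was higher than control in all 10 types tested in both models and passed in WD+F+CCl4 mice in plasmacytoid DCs, B cells and NK cells. In plasmacytoid DCs it was at 9.71 and 9.33 CPM in control mice, 30.7, 34.1 and 14.5 CPM in HFD+F+CCl4 mice and 66.5, 70.8 and 45.6 CPM in WD+F+CCl4 mice. The groups did not overlap, and the log2 fold change was 2.72 (SE 0.38, adjusted p = 0.000518) in WD+F+CCl4 and 1.33 (adjusted p = 0.136) in HFD+F+CCl4. Abcg1 in these cells was at 38.8 and 60.7 CPM in control mice, 71.6, 115 and 71.4 CPM in HFD+F+CCl4 mice and 197, 179 and 171 CPM in WD+F+CCl4 mice. These groups did not overlap either, and the log2 fold change was 2.07 (SE 0.25, adjusted p = 0.000189) in WD+F+CCl4 and 0.96 (adjusted p = 0.0731) in HFD+F+CCl4. Both WD+F+CCl4 calls in plasmacytoid DCs held without likely doublets (2.79, adjusted p = 0.00632, and 2.03, adjusted p = 0.00152).

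In lymphocytes the changes of the transporter genes were smaller. Abca1 in B cells rose from 91.9 and 73.7 CPM in control mice to 153, 141 and 151 CPM in WD+F+CCl4 mice, a log2 fold change of 1.00 (SE 0.24, adjusted p = 0.0224). Abcg1 rose in the WD+F+CCl4 mice in B cells (1.08, SE 0.23, adjusted p = 0.00851) and T cells (1.13, SE 0.18, adjusted p = 0.0113). In NK cells both transporter genes passed as well (Abca1 2.15, SE 0.63, adjusted p = 0.0347; Abcg1 adjusted p = 0.00501). In NK cells control replicate 2 had 3 Abca1 UMIs and 1 Abcg1 UMI, and both NK calls were lost without likely doublets (1.87, adjusted p = 0.149, and 0.88, adjusted p = 0.244). Endothelial cells had Abca1 at 87.2 and 31.6 CPM in control mice and at 183 to 329 CPM in the 5 NASH mice with enough cells. These did not overlap, but the differences of 1.86 and 2.04 on the log2 scale did not pass (adjusted p = 0.0802 and 0.0784).

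**Figure D4:**
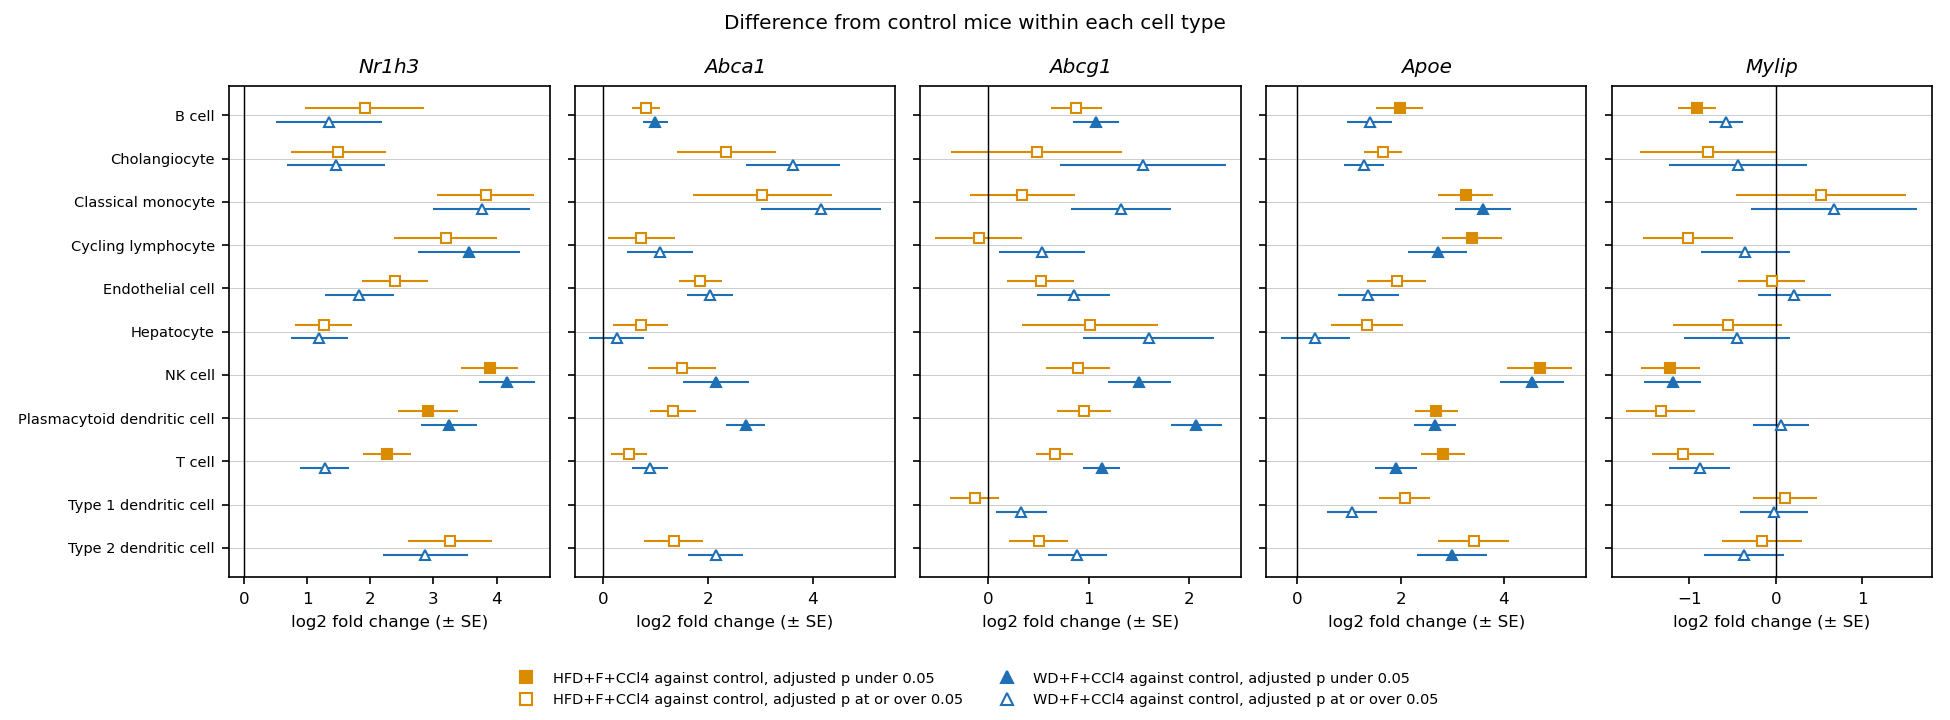
Log2 fold change against control mice (x axis, with its SE) of Nr1h3, Abca1, Abcg1, Apoe and Mylip within each cell type (y axis). Squares are HFD+F+CCl4, triangles WD+F+CCl4, and filled symbols have an adjusted p under 0.05. Nr1h3, Abca1 and Apoe lie to the right of 0 in every type tested, and Mylip lies to the left of 0 in most.

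Apoe, the ligand by which lipoprotein remnants are cleared and a carrier of cholesterol that macrophages release, was read with 4148803 UMIs in MMD cells. There it was at 738 and 434 CPM in control mice, 30836, 21674 and 8259 CPM in HFD+F+CCl4 mice and 13045, 12205 and 20293 CPM in WD+F+CCl4 mice. All NASH mice lay above the control mice, and HFD+F+CCl4 mice had both the highest and the lowest value among them. The log2 fold change was 5.24 (SE 0.66, adjusted p = 0.00137) in HFD+F+CCl4 and 4.90 (SE 0.65, adjusted p = 0.00132) in WD+F+CCl4. Apoc2, the activator of lipoprotein lipase, had 381 UMIs in all kept cells together. Its exons share 646 bases with Gm44805 on the same strand, and whether this overlap lowered the Apoc2 count was not tested. In MMD cells it had 1 UMI and 0 UMIs in the control mice and 21 to 76 UMIs per NASH mouse (0.521 to 2.01 CPM), and its test passed in neither model (adjusted p = 0.123 and 0.0816).

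Apoe was at 34764 ± 7721 CPM in lipid-associated macrophages (SD, n = 6), 33888 ± 8744 CPM in Kupffer cells (n = 5) and 30056 ± 7311 CPM in macrophages (n = 6). These 3 types overlapped one another, and the lowest macrophage value (21908 CPM) lay above the highest value of the next type, cycling MMD cells (21018 CPM). Cholangiocytes (9833 ± 4268 CPM, n = 7) and hepatocytes (9096 ± 4722 CPM, n = 8), 2 epithelial types of the liver, came after them, and patrolling monocytes were at 6779 ± 3917 CPM (n = 7). Within the same NASH mice macrophages had more Apoe than patrolling monocytes in 6 of 6 and than type 2 DCs in 6 of 6.

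Apoe was above control in all 11 types tested in both models and passed the threshold in 6 types in each. In classical monocytes, of which the control mice had 33 and 21 cells, it was at 834 and 455 CPM in control mice, 6782, 9157 and 2642 CPM in HFD+F+CCl4 mice and 9037, 7341 and 6798 CPM in WD+F+CCl4 mice. No value of a NASH mouse overlapped the control mice, and the log2 fold changes were 3.26 (SE 0.53, adjusted p = 0.0395) and 3.60 (SE 0.54, adjusted p = 0.0199). The calls were lost in 6 and 4 of 17 alternatives, with lowest log2 fold changes of 1.47 and 1.83. The unnamed mixed cluster of 876 cells, which held genes of classical monocytes and hepatocytes, was not part of this class. Apoe there was at 3508 and 1076 CPM in control replicates 1 and 2. In plasmacytoid DCs it was at 478 and 411 CPM in control mice, 4145, 3750 and 1155 CPM in HFD+F+CCl4 mice and 3106, 2156 and 2803 CPM in WD+F+CCl4 mice, again without overlap, with log2 fold changes of 2.69 (SE 0.41, adjusted p = 0.00271) and 2.67 (SE 0.41, adjusted p = 0.00103). NK cells gave 4.69 (SE 0.63, adjusted p = 0.000355) and 4.55 (SE 0.62, adjusted p = 0.000276), cycling lymphocytes 3.39 (SE 0.58, adjusted p = 0.00628) and 2.72 (SE 0.56, adjusted p = 0.0167), and T cells 2.83 (SE 0.42, adjusted p = 0.00824) and 1.91 (SE 0.41, adjusted p = 0.0253). B cells passed in HFD+F+CCl4 alone (1.98, SE 0.45, adjusted p = 0.0271) and type 2 DCs in WD+F+CCl4 alone (2.99, SE 0.68, adjusted p = 0.0457).

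Without likely doublets, Apoe no longer passed in T cells of either model (2.39, adjusted p = 0.0594, and 1.14, adjusted p = 0.247), in plasmacytoid DCs of WD+F+CCl4 mice (1.36, adjusted p = 0.137) in cycling lymphocytes of WD+F+CCl4 mice (2.10, adjusted p = 0.234) or in type 2 DCs of WD+F+CCl4 mice (2.21, adjusted p = 0.147). Apoe is also secreted by hepatocytes, so 7 hepatocyte-secreted genes (among them Alb, Ttr and Apoa2) were summed beside it. In MMD cells they were at 1414 and 1609 CPM in control mice, 547, 560 and 94.4 CPM in HFD+F+CCl4 mice and 90.4, 48.5 and 125 CPM in WD+F+CCl4 mice, opposite in direction to Apoe. Apoe had 0.522 and 0.270 UMIs per UMI of these genes in control mice and 38.7 to 252 in NASH mice. Hepatocyte genes cannot show free RNA from macrophages, and the part of free RNA in the Apoe values was not tested.

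Mylip, the ligase that marks lipoprotein receptors for degradation, did not follow the efflux genes. In MMD cells it was at 48.6 and 59.0 CPM in control mice, 104, 67.4 and 38.7 CPM in HFD+F+CCl4 mice and 59.5, 60.5 and 75.9 CPM in WD+F+CCl4 mice. The HFD+F+CCl4 mice lay on both sides of the control mice, and the differences of 0.55 and 0.52 on the log2 scale did not pass (adjusted p = 0.275 and 0.285). In B cells it fell from 262 and 263 CPM in control mice to 161, 127 and 107 CPM in HFD+F+CCl4 mice, without overlap, a log2 fold change of -0.91 (SE 0.22, adjusted p = 0.0384). In NK cells the log2 fold change was -1.22 (SE 0.34, adjusted p = 0.0391) in HFD+F+CCl4 and -1.19 (SE 0.33, adjusted p = 0.0271) in WD+F+CCl4, with 8 UMIs in control replicate 2, and without likely doublets both were of like size but no longer passed (-1.23, adjusted p = 0.116, and -1.08, adjusted p = 0.121). By level, Mylip was highest in endothelial cells (366 ± 104 CPM, n = 7), then in B cells (171 ± 58.6, n = 8) and Kupffer cells (127 ± 32.6, n = 5), each overlapping the next.

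Lrp8, the gene of apolipoprotein E receptor 2, a receptor that Mylip acts on, fell in the MMD cells of both models. Its mean was 84.2 CPM in control mice, 4.97 CPM in HFD+F+CCl4 (log2 fold change -3.90, SE 0.59, adjusted p = 0.00278) and 7.84 CPM in WD+F+CCl4 (-3.23, SE 0.58, adjusted p = 0.00474). Over all genes 9.17% and 11.5% were lower in the 2 comparisons. Without plasmacytoid and type 1 DCs it did not pass in HFD+F+CCl4.

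Srebf1, the gene of the lipogenic factor SREBP1, was at 32.9 and 45.2 CPM in the MMD cells of control mice, 30.2, 28.8 and 29.5 CPM in HFD+F+CCl4 mice and 37.5, 40.4 and 36.2 CPM in WD+F+CCl4 mice. The WD+F+CCl4 mice lay between the 2 control mice and the HFD+F+CCl4 mice below both, and neither test passed (-0.18, adjusted p = 0.561, and 0.23, adjusted p = 0.307). Within types it was below control in 10 of 11 types in each model, and fell in T cells of HFD+F+CCl4 mice (-0.997, SE 0.23, adjusted p = 0.0346). Its highest levels were in cholangiocytes (91.4 ± 20.5 CPM, n = 7) and hepatocytes (56.1 ± 44.7 CPM, n = 8), which overlapped. Of the 2 members with the DR4-like word shown above, Abca1 passed the test in the MMD system and Srebf1 did not.

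Lpcat3, which builds polyunsaturated fatty acids into membrane phospholipids, was at 22.0 and 25.1 CPM in the MMD cells of control mice, 44.0, 45.4 and 37.9 CPM in HFD+F+CCl4 mice and 56.5, 57.3 and 58.8 CPM in WD+F+CCl4 mice. The 3 groups did not overlap. The log2 fold change was 1.05 (SE 0.14, adjusted p = 0.00185) in HFD+F+CCl4 and 1.53 (SE 0.14, adjusted p = 0.0004) in WD+F+CCl4, and it was the one lipid synthesis gene of the 9 that rose. Its levels were highest in cholangiocytes (90.5 ± 23.2 CPM, n = 7) and Kupffer cells (72.8 ± 11.6 CPM, n = 5). It passed within no single type against control, with 9 of 11 types higher in HFD+F+CCl4 and 8 of 11 in WD+F+CCl4.

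Other genes of the pathway were followed as fixed lists in the MMD cells. Of 19 tested other LXR target genes, 4 rose and 5 fell in HFD+F+CCl4 mice (median 0.20) and 5 rose and 3 fell in WD+F+CCl4 mice (median -0.16). Over all genes 11.1% rose and 9.17% fell in HFD+F+CCl4, and 13.4% rose and 11.5% fell in WD+F+CCl4. Each list here is read against these shares in the main setting. Without plasmacytoid and type 1 DCs, 503 and 1159 of 16656 genes passed in the 2 models, in either direction. Those with the largest changes were Mertk, a receptor for the uptake of dying cells (3.91 and 3.79), Lpl, lipoprotein lipase (3.28 and 3.65), Smpdl3a, a phosphodiesterase (2.87 in WD+F+CCl4), and Mlxipl, the gene of the lipogenic factor ChREBP, which fell by 2.81 in HFD+F+CCl4. Fasn, whose promoter holds the shared word, also fell, from 55.1 CPM in control mice to 14.4 CPM in HFD+F+CCl4 (-1.74, adjusted p = 0.00662) and 12.5 CPM in WD+F+CCl4 (-1.91, adjusted p = 0.00361), and is named here for that promoter after its values were seen. Without plasmacytoid and type 1 DCs, 0 of the 19 passed in HFD+F+CCl4 mice, and 2 rose and 2 fell in WD+F+CCl4 mice. Of 10 genes of cholesterol storage and transfer, 3 rose in HFD+F+CCl4 mice: Lipa, the lysosomal lipase (2.37), Soat1, which makes cholesterol esters (1.88), and Npc2, a lysosomal cholesterol carrier (0.74). In WD+F+CCl4 mice 5 rose and 1 fell, with Lipa at 2.43, Soat1 at 1.95 and Apoa1, a gene of hepatocytes, at -3.75. With plasmacytoid and type 1 DCs left out, 1 of the 10 rose in HFD+F+CCl4, and 3 rose and 1 fell in WD+F+CCl4. Of 12 tested partners and cofactors 3 rose and 1 fell in HFD+F+CCl4 and 4 rose and 1 fell in WD+F+CCl4. When plasmacytoid and type 1 DCs were left out, 0 of these 12 passed in HFD+F+CCl4, and 1 rose in WD+F+CCl4. Of 6 tested oxysterol enzymes only Cyp39a1 rose (2.22 and 2.08), at a mean of 1.51 CPM in control mice, 3.96 CPM in HFD+F+CCl4 and 3.48 CPM in WD+F+CCl4. Without plasmacytoid and type 1 DCs 0 of these 6 passed in either model, and without likely doublets 1 rose in HFD+F+CCl4 and 0 in WD+F+CCl4. With the mixed control cluster counted, 0 rose in either model, and 1 and 2 fell.

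Sterol synthesis moved the other way. Of 22 genes of sterol synthesis and SREBP2 control, 18 were lower and none higher in HFD+F+CCl4 mice, and 20 were lower and none higher in WD+F+CCl4 mice, with medians of -1.52 and -2.15, while 9.17% and 11.5% of all genes were lower. Fdps, which makes farnesyl diphosphate, was at a mean of 139 CPM in control mice, 14.2 CPM in HFD+F+CCl4 and 7.74 CPM in WD+F+CCl4 (-3.09 and -3.95 on the log2 scale). Sqle, squalene epoxidase, was at 55.2, 8.47 and 2.26 CPM in the same order (-2.52 and -4.41). Without plasmacytoid and type 1 DCs 6 of 21 tested genes fell in HFD+F+CCl4 mice and 13 of 21 in WD+F+CCl4 mice. In that setting 503 and 1159 of all 16656 genes passed in either direction. Within plasmacytoid DCs alone, where 2.2% and 4.31% of all genes were lower in the 2 comparisons, 2 and 17 of 21 tested sterol synthesis genes fell, with medians of -0.63 and -1.79. In plasmacytoid DCs of WD+F+CCl4 mice, 17 sterol synthesis genes were lower and 4 of the 8 tested LXR genes (Nr1h3, Abca1, Abcg1 and Apoe) higher than in control mice, where 338 of 10064 genes were higher. Without likely doublets Abca1 and Abcg1 passed, while Nr1h3 (1.86, adjusted p = 0.259) and Apoe (1.36, adjusted p = 0.137) did not. In T cells 4 and 10 of 21 fell (2.63% and 4.19% of all genes), and in type 2 DCs 1 and 10 of 21 (0.166% and 1.11% of all genes), with none higher. The summed hepatocyte-secreted genes were also lower in NASH mice in these 3 types. In plasmacytoid DCs they were at 1789 and 1813 CPM in control mice, 768, 927 and 137 CPM in HFD+F+CCl4 mice and 117, 45.8 and 166 CPM in WD+F+CCl4 mice. The part of hepatocyte RNA in the sterol synthesis values was not tested.

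The comparison of the 2 models asked whether the cholesterol-rich western diet differed from the high-fat diet. None of the 9 genes passed in MMD cells by edgeR, and 0.0% of all 17248 genes did. At an unadjusted p under 0.05, where 1111 of the 17248 genes stood in either direction, 3 of the 9 were higher in WD+F+CCl4, Abcg1, Lpcat3 and Srebf1, with log2 differences of 0.64 (SE 0.19), 0.48 (SE 0.11) and 0.41 (SE 0.12) and edgeR adjusted p of 0.581, 0.549 and 0.585. The 3 WD+F+CCl4 mice lay above the 3 HFD+F+CCl4 mice for each of these 3 genes. The share of all genes that separate in this way is not given. Classical monocytes made up 3.1% to 8.1% of the MMD cells in HFD+F+CCl4 mice and 12.3% to 35.7% in WD+F+CCl4 mice. Between the models, too, a change in cell makeup and a change within cells cannot be told apart in this pooled class. DESeq2 called 1 of the 9, Lpcat3 (0.48, adjusted p = 0.0093 by DESeq2), and 133 genes in all.

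Within 18 types, 143 gene-by-type tests gave 0 calls by edgeR, against 0.00606% of all gene-by-type tests, with 29 at an unadjusted p under 0.05 and 1 call by DESeq2. Over all genes 10001 of 181451 such tests (5.51%) had an unadjusted p under 0.05. Abcg1 was higher in WD+F+CCl4 in 18 of 18 types and Abca1 in 16 of 17, with 8 and 7 of these at an unadjusted p under 0.05. The types came from the same mice, so counts of types, here and below, are not independent repeats. The share of all genes with the same direction in most types is not given. Abca1 in patrolling monocytes was at 73.9, 84.8 and 51.5 CPM in HFD+F+CCl4 mice and 141, 153 and 147 CPM in WD+F+CCl4 mice, which did not overlap (1.10 on the log2 scale, SE 0.17, edgeR adjusted p = 0.669). In classical monocytes it was at 58.9, 56.6 and 23.7 CPM against 84.3, 116 and 85.9 CPM, again without overlap (1.12, SE 0.27, adjusted p = 0.324). Apoe pointed the other way in 14 of 18 types: in lipid-associated macrophages it was at 47411, 39568 and 35277 CPM in HFD+F+CCl4 mice and 27058, 28455 and 30817 CPM in WD+F+CCl4 mice, without overlap (-0.55, SE 0.21, adjusted p = 0.591). Nr1h3 was also lower in WD+F+CCl4 in 13 of 17 types.

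Across the means of 20 cell types, the profile of Nr1h3 was like those of some of the other genes and not of others, as a description over types that share libraries. The correlation of log2(CPM + 1) of Nr1h3 with Apoe was 0.91, with Abcg1 0.83, with Abca1 0.78, with Lpcat3 0.63, with Srebf1 0.41 and with Mylip 0.37, while that of Nr1h2 with Abca1 was 0.34. Among 13891 genes, the profiles nearest to Nr1h3 included those of Acp2 (0.95), Adgre1 (0.93), Hmox1 (0.93) and Tlr8 (0.92). For Abca1 they were Hs1bp3 (0.92), Tpp1 (0.90), Clcn7 (0.89), Plod1 (0.89) and Lgmn (0.88), of which Tpp1, Clcn7 and Lgmn encode lysosomal proteins. For Abcg1 they were Gm37399 (0.95), Slc15a3 (0.94), Soat1 (0.94), Akap10 (0.93) and Tgfb1 (0.93), and for Apoe they included Fmn1 (0.93), Lpl (0.93), Pla2g15 (0.92) and Lamp1 (0.92).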

How the data were processed

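The authors deposited whole-number UMI counts, not normalized, made with Cell Ranger on GRCm38 (4.0.0 in the file header) as 1 matrix in which a barcode suffix gives the mouse. All 55450 gene IDs matched GENCODE M21. No removal of free RNA or doublets by the authors is stated in the labels or methods, and none was made in the main analysis. Kept barcodes (over 500 genes, mitochondrial share below 25%) were clustered (scanpy 1.11.5, 2000 variable genes, 30 components, Leiden resolution 1.0, 41 clusters). Clusters were named by fixed markers. The naming thresholds, and the members and gene lists, were chosen with earlier results of these data known. Counts were summed per mouse and class (at least 20 cells) and tested with edgeR 4.0.16 (TMM, filterByExpr with a minimum count of 10) on all 3 groups. CPM needs no pseudocount in the tests, and likeness used log2(CPM + 1) over genes of at least 10 CPM in some type. The 9 members are named in every comparison, and of the other lists at most the 3 called genes with the largest change per comparison in MMD cells, unless stated. Mice are the replicates, so p-values measure the spread between mice. The script was tested on simulated counts in which 200 genes had a true log2 change of 2, of which edgeR recovered 52% in MMD cells for HFD+F+CCl4 against control (16925 genes, 6 false calls). The 6824 barcodes left out as likely doublets were those with the highest Scrublet scores, 0.8% per 1000 barcodes of a mouse. Some genes that the rule would name are not reported here.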

Additional observations from a re-analysis of the deposited data

Results flagged for a closer look

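Members that moved in opposite directions in different cell types, by every mouse of a group lying above or below every mouse of the other, were Nr1h2 and Lpcat3. These differences between types were not tested. No edgeR test of Nr1h2 or Lpcat3 within a type passed in any comparison. With 2 control and 3 treated mice, full separation in some types can arise without a difference between groups. The share of all genes that separate in this way is not given.

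Nr1h2 in HFD+F+CCl4 against control was higher in every mouse in 1 type, classical monocytes, and lower in every mouse in 2 types, endothelial cells and B cells. In classical monocytes the control mice had 8 and 1 UMIs of Nr1h2. In endothelial cells Nr1h2 was at 94.5 and 94.9 CPM in control mice and 85.4, 87.0 and 89.3 CPM in HFD+F+CCl4 mice. In WD+F+CCl4 against control it was higher in 1 type, classical monocytes, and lower in 3 types, endothelial cells, T cells and B cells. In B cells it was at 55.4 and 96.1 CPM in control mice, 52.5, 27.9 and 17.9 CPM in HFD+F+CCl4 mice and 37.1, 27.8 and 36.6 CPM in WD+F+CCl4 mice. Between the models it was higher in WD+F+CCl4 in 1 type, lipid-associated macrophages, and lower in 1 type, endothelial cells.

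Lpcat3 in HFD+F+CCl4 against control was higher in every mouse in 2 types, endothelial cells and classical monocytes, and lower in 1 type, cholangiocytes. In cholangiocytes it was at 94.4 and 133 CPM in control mice (29 and 6 UMIs) and 89.7, 68.6 and 60.9 CPM in HFD+F+CCl4 mice. In classical monocytes it was at 19.4 and 0 CPM in control mice (3 and 0 UMIs) and 40.6, 46.2 and 38.6 CPM in HFD+F+CCl4 mice.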

How the results depend on the processing

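Of the counts of members called, 98 stayed within 1.5 times the reported count across alternatives and 15 did not. In MMD cells the count for HFD+F+CCl4 against control was 3 without plasmacytoid and type 1 DCs. Within types, HFD+F+CCl4 against control gave 27 calls with no filter on low counts and 1 to 14 with 1 mouse left out. WD+F+CCl4 against control gave 10 with more than 1000 genes per cell, 9 without likely doublets, 34 with no filter and 4 to 21 with 1 mouse left out. WD+F+CCl4 against HFD+F+CCl4 gave 1 in MMD cells and 1 within types by DESeq2, 15 within types with no filter, and 0 to 2 with 1 mouse left out (2 without WD+F+CCl4 replicate 3). The replicate block gave 5 and 5 calls in MMD cells and 12 within types for HFD+F+CCl4, and 1 within types between the models. Correlations of same-numbered mice ran from -0.51 to 0.04, and those of differently numbered mice from -0.31 to 0.47. They were taken on deviations from group means, which are tied to one another in groups of 2 or 3 mice. They gave no sign that the numbers pair the mice but cannot exclude it. Over all genes in MMD cells, the calls for the 2 models against control (3498 and 4292) were 2087 and 2661 with the block, 1406 and 1990 without control replicate 1, 2158 and 2990 without control replicate 2, and 503 and 1159 without plasmacytoid and type 1 DCs. Across alternatives, single results were the same 859 times, weaker 119 times and stronger 4 times. In WD+F+CCl4 mice the call of Abca1 was lost in 6 of 17 alternatives in B cells, 8 of 16 in NK cells and 0 of 17 in plasmacytoid DCs. The call of Apoe in B cells of HFD+F+CCl4 mice was lost in 5 of 17. Single members turned sign 7 times, none of them called. Srebf1 was at 0.0511 in HFD+F+CCl4 against control with more than 1000 genes per cell. Between the models, with 1 mouse left out, Apoe ran from -0.70 to 0.0246 (above 0 without HFD+F+CCl4 replicate 1), Apoc2 from -0.0948 (without HFD+F+CCl4 replicate 3) to 0.6966, and Mylip from -0.2956 to 0.3008 (above 0 without WD+F+CCl4 replicate 1, WD+F+CCl4 replicate 2 or HFD+F+CCl4 replicate 1). Mylip was at 0.037 with the block. The causes were not tested. Control replicate 2, with 4168 kept cells, limits the depth of most control values.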

Other observations

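Cells that no marker named also carried these genes. In the unnamed MMD cluster of 3070 cells, Nr1h3 was at 46.3 CPM in control replicate 1 and 193 to 309 CPM in the 6 NASH mice, and Apoe was at 845 CPM and 7459 to 15164 CPM. Abca1 there was at 17.4 CPM in control replicate 1 and 127 to 189 CPM in the NASH mice. In the mixed cluster of 2035 cells, 2006 of them from control replicate 2, Apoe was at 1873 CPM and Nr1h3 at 24.5 CPM in that mouse. In the mixed cluster of 1533 cells, 1502 of them from control replicate 1, Apoe was at 3231 CPM and Nr1h3 at 12.6 CPM in that mouse.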
